A study of Cavia porcellus with 12 samples.

Results

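Ventricular cardiomyocytes of the guinea pig had their small RNA sequenced after 1 h with doxorubicin (DOX) or with its vehicle, DMSO, and the deposited table of this comparison held 1610 sequence entries of 7924 in the 3 tables of the series. Every entry of that table was taken. The groups were DOX 1 h, with 10 µM DOX, and DMSO 1 h, with the vehicle for the same time, each labelled with 3 libraries (C1 to C3) of the 12 in the series. The cells came from adult female Hartley guinea pigs and were dissociated with enzymes from a perfused heart in both groups. The labels name the cells ventricular cardiomyocytes and do not say whether the libraries of a group came from separate animals. Their protocol text describes the exposure of 22 h only.

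DOX is an anthracycline used against cancer that intercalates into DNA, poisons topoisomerase II and injures the heart muscle. miRNAs are short RNAs cut from a hairpin precursor, which can release one from its 5′ arm (5p) and one from its 3′ arm (3p), and they repress mRNAs that pair with the bases near their 5′ end, the seed. Paralogous miRNAs that share this stretch form a family. In the sums by family below, however, families were taken from the number in the precursor name. miR-99 and miR-100, or let-7 and miR-98, therefore counted as separate families there. Heart muscle is known for miR-1 and miR-133a, which are made from shared transcripts, and for miR-208a, miR-208b and miR-499a, which lie in introns of myosin heavy chain genes. The cut at either end varies by a base or more, so that each miRNA is present as several isoforms (isomiRs), and in this table each isoform was an entry of its own.

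For each entry the table gave the mean normalized count of all its libraries and one fitted value per group, in a column named control and a column named comparison, and no value per library. The table also holds the authors' own fold changes, standard errors and p-values for single entries, which were not used directly. For entries with a restored mean that the study prints at 1 h, the ratio of the 2 columns matched its printed fold change. The columns thus carry the authors' fit and are not an independent measure of the groups. From the values used, no SD between libraries and no test could be computed, and every difference below is between 2 pooled columns, without a replicate check. The header does not say which group is which column. Names of predicted miRNAs in the table call DMSO 1 h the control group, and the study reads its entries at 1 h with the comparison column as DOX. In the 2 other tables, however, the shared library was the one in the column control: reads recovered for 992 entries of the 22 h table all matched a whole-read solution of that library in the table of DOX 22 h and DOX 1 h, and DOX 22 h is the group these tables share. Where 1 sequence was listed under 2 precursors, the difference between its listings at 1 h had the sign found in the table of DOX 22 h and DOX 1 h in 111 of 270 pairs, and the 22 h table had that sign in 160 of 234 pairs. The groups were not assigned to columns from these values, and values are given by column, so that no direction of a DOX effect is read from them.

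Of the 1610 entries, 1588 had a sequence under a human precursor, 17 were predicted miRNAs and 5 carried only a miRNA name. A mean could be restored for 1501 of the 1588, those with a positive mean in the table of DOX 22 h and DOX 1 h. The abundances below rest on these. They held 1268 different sequences of 243 precursors and 168 families. Pooling copies of a gene gave 301 miRNA arms, of which 235 had 2 or more entries. Summed over entries, the mean was 5874789 normalized counts, the control column 5905415 and the comparison column 5844163. The depth of single libraries is unknown.

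The leading sequences are shown because they show where the entries begin and how close the miRNAs are to one another. The first 6 bases are in capitals. Compared with the mature miRNAs as commonly written, the entries began inside the 5′ end, so the capitals overlap the seed but are not the seed. The muscle miRNAs led the list, with miR-1-3p in 2 forms.
miR-1-3p, first form: GAATGTaaagaagtatgtat
miR-1-3p, second form: GAATGTaaagaagtgtgtat
miR-206-3p: GAATGTaaggaagtgtgtat
miR-133a-3p: GGTCCCcttcaaccagctgt
miR-133a-3p, 1 base earlier: TGGTCCccttcaaccagctgt
miR-499a-5p: AAGACTtgcagtgatgttt
miR-208a-3p: AAGACGagcaaaaagcttgt
miR-208b-3p: TAAGACgaacaaaaggtttg
The second form of miR-1-3p differed from the first by A15G, counted from 1 at the first base of the entry, and miR-206-3p differed from the first form by A9G and A15G. Against the second form, miR-206-3p carried A9G alone.

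Sets of miRNAs that shared their first 6 bases are shown next, followed by miR-143-3p and miR-126-3p. Members of such a set differ from one another by a few bases, and rare entries of one can lie close to another. The 5p arms of the 9 let-7 list members, miR-98 among them, all began AGGTAG, and the 5p arms of the 5 miR-30 members all began TAAACA.
let-7a-5p: AGGTAGtaggttgtatagtt
let-7f-5p: AGGTAGtagattgtatagtt
miR-27a-3p: CACAGTggctaagttccgt
miR-27b-3p: CACAGTggctaagttctgc
miR-99a-5p: CCCGTAgatccgatcttgtg
miR-99b-5p: CCCGTAgaaccgaccttgcg
miR-100-5p: CCCGTAgatccgaacttgtg
miR-143-3p: AGATGAagcactgtagctct
miR-126-3p: GTACCGtgagtaataatgcg
miR-126-3p, 1 base later: TACCGTgagtaataatgcg
From let-7a-5p to let-7f-5p the difference was G10A, from miR-27b-3p to miR-27a-3p it was T17C and C19T, from miR-99a-5p to miR-100-5p it was T14A, and from miR-99a-5p to miR-99b-5p it was T9A, T14C and T19C.

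A few families carried most of the small RNA at 1 h. The 5 most abundant families held 58.5% of the summed means, the first 10 held 81.3% and the first 20 held 94.3%. miR-1 was first with 20.6%, followed by miR-143 with 18.97%, miR-499 with 7.17%, miR-30 with 6.14%, miR-133 with 5.60%, miR-26 with 5.30% and let-7 with 5.29%. miR-126 held 4.41%, miR-27 4.17% and miR-24 3.64%. The order of the first 2 depended on how sequences listed under several precursors were counted. With such listings averaged instead of summed, miR-143 was first with 24.27% and miR-1 second with 13.75%. At the other end, 833 of the 1501 entries had a mean under 100 and together held 0.477% of the sum, whereas 89 entries of 10000 or more held 86.9%.

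**Figure D1:**
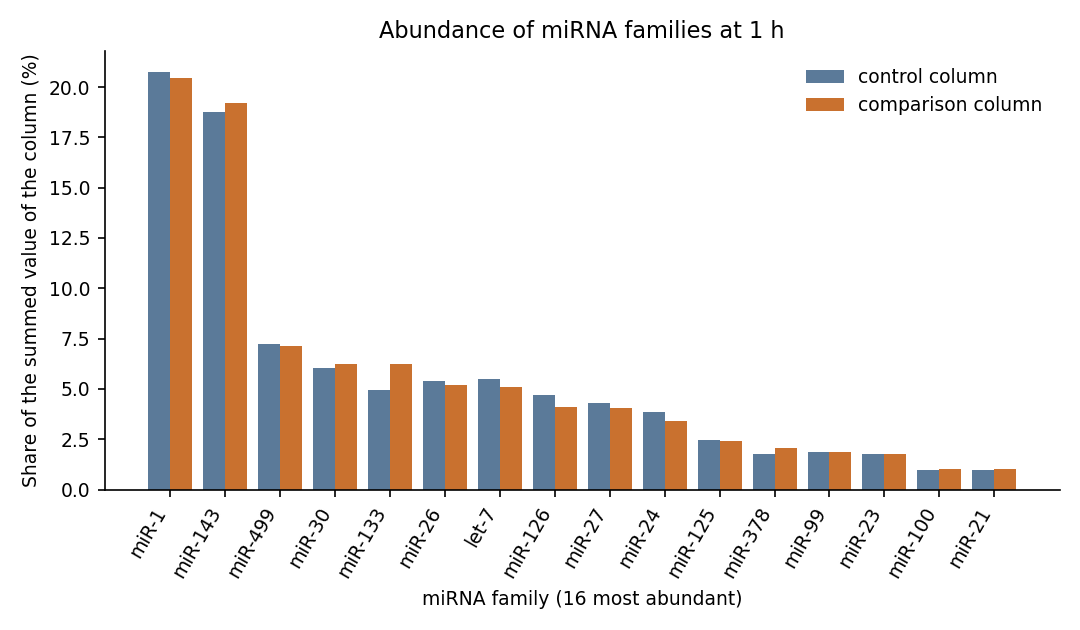
Share of the summed value of each column (%, y axis) held by the 16 most abundant miRNA families (x axis), with the control column in blue and the comparison column in orange. The pairs of bars lie close together for miR-1 and miR-143, and miR-133 is taller in the comparison column.

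Among the muscle miRNAs, all 7 listed members had entries, and together they held 33.5% of the sum. miR-1, which restrains growth and shapes conduction in the heart, summed to 1226274 normalized counts in the control column and 1194229 in the comparison column. Its 2 forms were present at 51.3% and 41.6% of miR-1-3p, and this split was the same in both columns within a point. miR-499a summed to 425787 and 416470. miR-208b, from the slow myosin gene, had 5863 and 5917, and miR-208a, from the cardiac myosin gene, had 2751 in each column. miR-206, which marks skeletal muscle, had 326 and 314, or 0.00544% of the sum, and its leading sequence carried 88.1% of it. That sequence differs by A9G alone from the second form of miR-1-3p, which was far more abundant. Whether its reads came from miR-206 or from that form was not tested. The columns were thus nearly level for 5 of these members, with log2 ratios of comparison over control between −0.06 and 0.01. miR-133a stood apart from them, with 291572 in the control column and 364557 in the comparison column. miR-133b had 774 and 870, and its leading entry is contained in the earlier-starting form of miR-133a-3p shown above, so that reads of the 2 miRNAs could not be told apart there.

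The markers of other cell types were measured in the same libraries. miR-143, known from smooth muscle, was the second family, with 1107617 in the control column and 1121853 in the comparison column, and miR-145 from the same transcript had 21432 and 23767. miR-126, made in endothelium, had 277559 and 240351. The fibroblast list (miR-199a, miR-199b, miR-214 and miR-21) held 1.38% of the sum, of which miR-21 was the largest part with 58515 and 58301. The red blood cell list (miR-451a, miR-144 and miR-486) held 0.0448%, and the white blood cell list (miR-142, miR-223, miR-150 and miR-155) held 0.0106%. All 4 white cell markers and all 3 red cell markers had entries. miR-9, known from brain, had 12 entries and 273 normalized counts, and miR-124 and liver miR-122 had no entry. From control to comparison column, the share of miR-126 went from 4.70% to 4.11%, that of the smooth muscle list from 19.1% to 19.6%, and that of the fibroblast list from 1.37% to 1.40%. In pooled cells, fewer cells of a type and less RNA per cell cannot be told apart, and the part of these cells in the differences below was not tested.

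Both arms of many hairpins were listed, and 1 arm nearly always dominated. Of 210 miRNA genes with copies pooled, 91 had entries from both arms, and the 5p arm was the larger in 54 of them and the 3p arm in 37. The smaller arm held a median of 3.26% of the pair, and under 5% in 51 of the 91. The 3p arms summed to 64.8% of all means and the 5p arms to 35.2%. miR-499a was almost all 5p (99.6%), whereas in miR-133a the 5p arm was 1.80% and in miR-143 it was 0.0366%. miR-126, with 8.28% from the 5p arm, and miR-30e, with 8.41% from the 3p arm, were more even. The share of the 5p arm differed by under 1 percentage point between the columns in 56 of the 67 genes with 1000 or more normalized counts and both arms listed.

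The 2 genes with the widest arm differences in that set were mir-339 and mir-140. miR-339-5p summed to 2482 in the control column and 3117 in the comparison column over 6 entries, while miR-339-3p summed to 1908 and 1592 over 6 entries, so that the arms of 1 hairpin lay on opposite sides. The 5p share of mir-339 was 56.5% and 66.2%. miR-140-3p had 5124 and 6263 over 23 entries, and miR-140-5p had 2881 and 2718 over 4, with 5p shares of 36.0% and 30.3%. These are single pairs of columns, and no error can be given for the difference.

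Entry lengths ran from 12 to 21 bases. Because the entries began inside the 5′ end of the mature miRNAs, these are lengths of entries and not of whole miRNAs. Weighted by abundance, the mean length was 19.73 bases, 19.72 in the control column and 19.73 in the comparison column. Entries of 20 bases held 59.4% of the sum, those of 19 bases 23.0%, those of 21 bases 10.8% and those of 18 bases 5.65%. Entries of 16 bases or fewer were 126 in number, the most abundant class of them, at 16 bases, holding 0.163%. No entry was longer than 21 bases. By length, the share of the 21-base entries was 10.5% in the control column and 11.1% in the comparison column, and that of the 18-base entries was 5.73% and 5.57%.

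**Figure D2:**
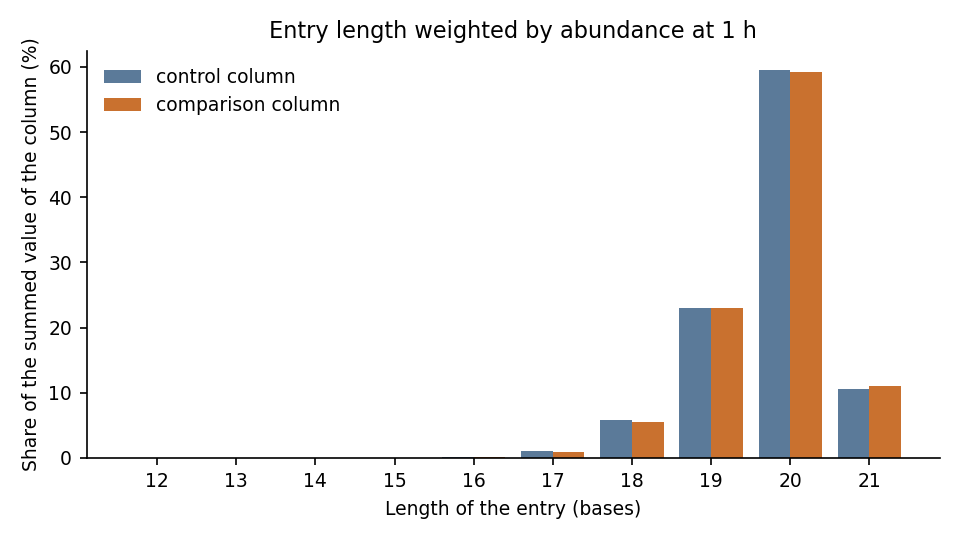
Share of the summed value of each column (%, y axis) by entry length in bases (x axis), with the control column in blue and the comparison column in orange. Both columns peak at 20 bases with 59.5% and 59.2%, and the bars of the columns differ by under 1 percentage point at every length.

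The shape of the length profile belonged to each miRNA. Entries of 20 or 21 bases made up 97.3% of miR-1-3p in both columns and 99.9% of miR-133a-3p, but 28.8% and 29.4% of miR-499a-5p, and 25.8% and 24.4% of miR-27b-3p. miR-143-3p was mixed, at 57.7% and 57.1%. For 98 miRNA arms with 1000 or more normalized counts and both long and short entries, the long share was higher in the comparison column for 48 and lower for 50, with a median difference of −0.02 percentage points, and 80 of them moved by under 2 points. The widest was miR-374a-5p, with the flagged entries described below, from 44.8% in the control column to 51.6% in the comparison column. Next were miR-339-3p, from 27.1% to 32.2%, and miR-99b-5p, from 78.2% to 73.5%.

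Isoforms were then classed against the most abundant entry of each precursor arm, the lead. Lead entries held 55.3% of the sum. Entries with the same start that were shorter held 21.01%, those that were longer held 9.11%, and those with the same start and a different base held 11.1%, most of it the second form of miR-1-3p. Starts at another base were rare, 1.94% upstream of the lead and 1.59% downstream. The lead entry held over 50% in 172 of the 260 precursor arms with 2 or more entries, and up to 23 entries belonged to 1 arm.

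Other starts belonged mainly to 2 miRNAs. miR-133a-3p gave 50.4% of all reads at another start and miR-126-3p gave 27.6%. In miR-133a-3p the form that begins 1 base earlier held 32.4% of the miRNA, with 92262 normalized counts in the control column and 116237 in the comparison column, and the later form had 193059 and 241461. Both forms were higher in the comparison column, by nearly equal factors, and in mir-133a-1 the earlier form was 32.4% of the control column and 32.5% of the comparison column. In miR-126-3p the starts 1 base later than the lead held 24.5% of the control column and 23.7% of the comparison column. Upstream starts as a class summed to 101991 and 125603, a log2 ratio of 0.30, and without miR-133a-3p they summed to 9562 and 9185, a log2 ratio of −0.06.

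A scale for counting error came from sequences listed under several precursors. There were 186 such sequences in 419 entries. Of the 147 listed under exactly 2 precursors, 142 had 2 means within 1.5-fold of each other and none had 2 identical means. No listing was thus a plain copy of the other. Both listings are 1 sequence, so the gap between their log2 ratios comes from the reads and not from a difference between molecules. The median gap was 0.13 where the lower listing was under 30 normalized counts (27 pairs) and also 0.13 from 30 to under 100 (28 pairs). It was 0.06 from 100 to under 1000 (47 pairs) and 0.01 at 1000 or more (40 pairs), with a highest gap of 0.04 in the last. This covers counting error only and not the spread between libraries. The gaps are between fitted values. If the fit drew those of rare entries together, which was not tested, the gaps understate counting error there.

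Shifts between the columns were small for most miRNAs. Across the 235 miRNA arms with 2 or more entries, the median log2 ratio of comparison over control was −0.02, with quartiles of −0.12 and 0.11. A limit of 1.2-fold was used to name shifts. By that limit 23 arms were higher in the comparison column, 9.79% of those compared, and 12 were higher in the control column, 5.11%. Among the 101 arms with a summed mean of 1000 or more, 8 were higher in the comparison column (7.92%) and 3 in the control column (2.97%), and 50 of the 101 lay within 0.1 on the log2 scale. In the 22 h table, where reads of single libraries could be recovered, the fitted log2 differences were 0.269 of the differences in reads at means under 20 and 0.804 of them at means from 200 to 500. If the values at 1 h were drawn together in the same way, which was not tested, the ratios given here are too small.

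**Figure D3:**
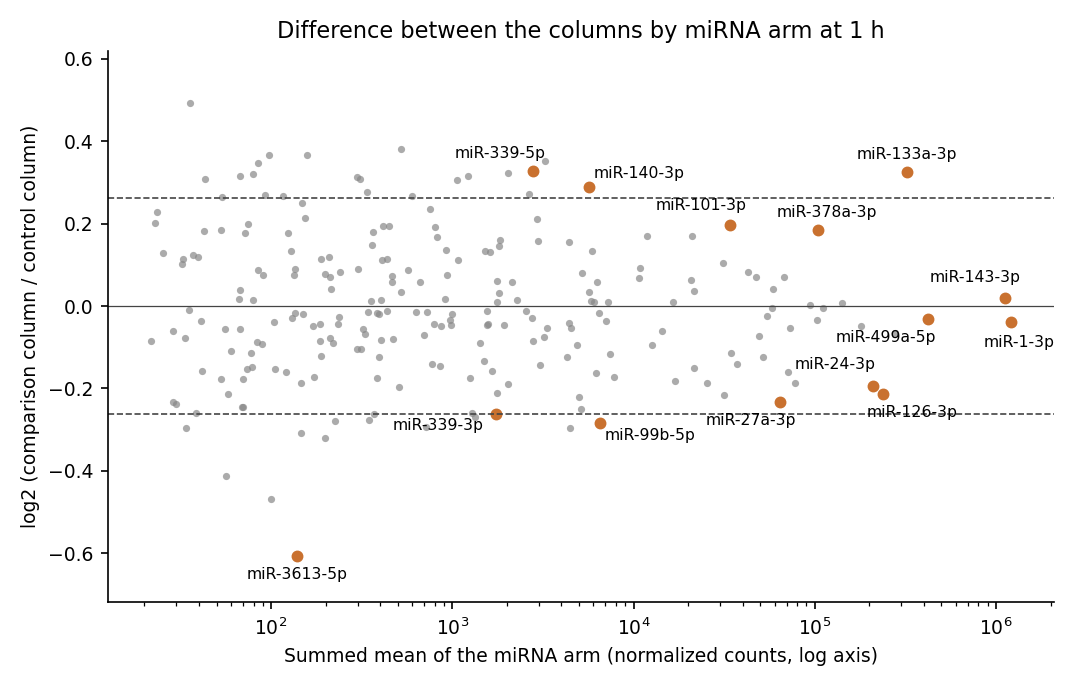
Log2 ratio of comparison column over control column (y axis) against the summed mean of each of 235 miRNA arms (x axis, normalized counts, log axis), with the 1.2-fold limits dashed and named arms in orange. miR-133a-3p lies above the upper limit at 322156 normalized counts, whereas miR-1-3p and miR-143-3p lie near 0.

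Of the 16 miRNAs that make up the 20 most abundant precursor arms, miR-133a-3p alone passed the limit. It represses serum response factor and cyclin genes in muscle, and it summed to 285939 in the control column and 358372 in the comparison column, 1.25-fold higher in the latter, with a log2 ratio of 0.33. The value was 0.32 for mir-133a-1 and 0.33 for mir-133a-2, whose entries are mostly the same sequences and are not independent. Of its 29 entries, 21 were higher in the comparison column. The other arm, miR-133a-5p, had 5633 and 6184, a log2 ratio of 0.13. miR-1-3p, made with miR-133a from shared transcripts, was at −0.04, and 13 of its 18 entries, most of them repeat listings, were higher in the control column.

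The miR-378 family was higher in the comparison column in each of its 3 listed members. miR-378a lies in an intron of PPARGC1B, a regulator of mitochondrial genes. miR-378a-3p had 97933 and 111389, a log2 ratio of 0.19, and miR-378a-5p had 2703 and 3127, at 0.21. miR-378c had 2844 and 3630, at 0.35, and miR-378d had 950 and 1174, at 0.31, so that 2 of the 4 arms passed the limit. On the comparison side 9.79% of all 235 arms compared passed it. The sequences of miR-378c and miR-378d share most bases with miR-378a-3p, and the 3 are not independent measures. miR-101-3p, with 31871 and 36539, was at 0.20 and did not pass. miR-140-3p, miR-107-3p, miR-199b-5p, miR-19b-3p and miR-339-5p completed, with miR-133a-3p and the 2 miR-378 arms, the 8 abundant arms past the limit on this side, at 0.27 to 0.35.

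On the other side, 3 abundant arms passed the limit: miR-374a-5p with 4930 in the control column and 4014 in the comparison column in 3 entries, miR-99b-5p with 7186 and 5901, and miR-423-5p with 1457 and 1210. Entries with 52.2% of the counts of mir-374a carried an outlier flag, described below, and without them miR-374a-5p was at −0.090 and inside the limit. miR-423-5p was at −0.254, also inside, with both columns scaled to the same total. On the comparison side miR-107-3p was at 0.262, just inside, with repeated listings averaged. miR-339-3p, miR-29b-3p and miR-195-5p lay close to the limit at −0.26, −0.26 and −0.25. More of the RNA was held by miRNAs just inside it. miR-126-3p had 254999 and 220040, at −0.21, miR-24-3p had 223072 and 194945, at −0.19, and miR-27a-3p had 69225 and 58857, at −0.23. These differences exceed the gap between listings of 1 sequence at such abundance, which says nothing of the spread between libraries.

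The let-7 family, which restrains proliferation, leaned to the control column. The list with miR-98 summed to 325034 in the control column and 298691 in the comparison column, a log2 ratio of −0.12. All 11 entries of let-7f-5p and all 18 of let-7a-5p were higher in the control column, at −0.19 and −0.16 for the sums, and let-7i-5p was at −0.12, while let-7b was at 0.06. Most of the let-7f-5p and let-7a-5p entries list the same sequences under several precursors, so they are not independent. By the limit, 2 of its 16 arms were higher in the comparison column and 1 in the control column, against 9.79% and 5.11% of all arms. The 3 were rare 3p arms, let-7f-3p, let-7c-3p and let-7i-3p, each under 1000 normalized counts.

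In the miR-15/16 list, which targets cell cycle and survival genes, miR-16-5p had 26904 and 23647, at −0.19, miR-15b-5p had 8284 and 7353, at −0.17, and miR-195-5p, with 46.8% of its gene's counts flagged, had 5592 and 4698, whereas miR-497-5p, a neighbour of miR-195, had 1040 and 1123, at 0.11. None of the 6 arms passed the limit, which 9.79% of all arms passed on the comparison side and 5.11% on the control side. The miR-30 list had a sum at 0.03 and all 8 arms inside the limit. So had the miR-26 list, with 4 arms and a sum at −0.07, and the list of miR-148a, miR-148b and miR-152, with 4 arms and a sum at 0.09. In the miR-29 list, which targets collagens, the 5 arms ran from −0.26 for miR-29b-3p to 0.18 for miR-29c-5p. The miR-181 list summed to −0.12, and 1 of its 6 arms, the rare miR-181b-3p, passed the limit on the comparison side. The lists of miR-23, miR-27 and miR-24, of miR-10 and miR-125, and of miR-99 and miR-100 summed to −0.12, −0.05 and −0.02. Of their 10, 6 and 3 arms, none, 1 and none passed the limit on the comparison side, and miR-99b-5p alone passed it on the control side.

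**Figure D4:**
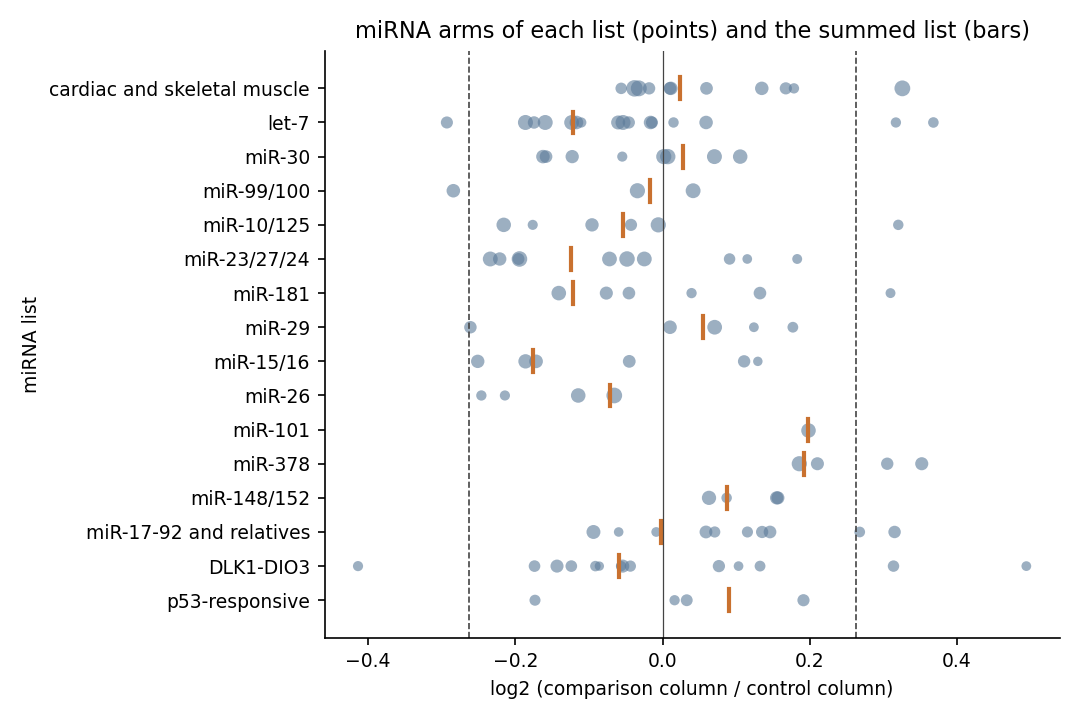
Log2 ratio of comparison column over control column (x axis) for the miRNA arms of 16 lists (y axis), with a point for each arm sized by the logarithm of its summed mean, an orange bar for the summed list and dashed lines at 1.2-fold. Most points lie inside the limits, the miR-378 points all lie to the right of 0 and the let-7 sum lies to its left.

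Ratios were also set side by side for genes that lie in 1 cluster, chosen after the values were seen. In the cluster of miR-99b, let-7e and miR-125a, the log2 ratios were −0.28, −0.02 and −0.22, and in the paralogous cluster of miR-99a, let-7c and miR-125b they were −0.03, −0.12 and −0.01. In the cluster of miR-23a and miR-27a they were −0.02 and −0.23, and in that of miR-23b and miR-27b they were −0.07 and −0.05. miR-24-3p belongs to both of these clusters and its reads cannot be divided between them. miR-143-3p and miR-145-5p were at 0.02 and 0.17. miR-221-3p and miR-222-3p, which were rare, had 138 and 178 and 48.6 and 58.3 normalized counts.

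Members of the DLK1-DIO3 list, an imprinted locus, were rare, with 20 of 27 members listed and 0.163% of the sum. Of 14 arms, 2 were higher in the comparison column by the limit (miR-127-3p with 266 and 330, and miR-543 with 29.6 and 41.7) and 1 in the control column (miR-136-5p with 64.6 and 48.5). Over all arms the shares past the limit were 9.79% on the comparison side and 5.11% on the control side. The list of miR-17-92 and its relatives held 0.340%, and miR-19a-3p and miR-19b-3p passed the limit on the comparison side, 2 of its 10 arms. Of the p53-responsive list, miR-34a-5p, which rises with DNA damage in many cells, had 518 and 530 normalized counts in 2 entries, miR-34c-5p had 66.5 and 67.2, miR-194-5p had 753 and 859, and miR-192-5p had 182 and 162. None of these 4 arms passed the limit, and miR-34b and miR-215 had no entry.

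Single entries were then searched for the widest gap between columns, among those with a restored mean only. Entries left out for want of a mean, some of which the study may name, can hold wider gaps. For 11 arms that the study followed or that neighbour them, the entry with the widest gap between columns was the most abundant entry in 2, miR-27a-5p and miR-34a-5p. In miR-99b-5p it was a pair of sequences shown here because they differ in bases from the main form given above.
miR-99b-5p, changed bases, longer: CCCGTAgaaccgatcttgtg
miR-99b-5p, changed bases, shorter: CCCGTAgaaccgatcttgt
The longer had 8.24 in the control column and 30.9 in the comparison column, and the shorter had 5.80 and 27.5. Against the main form of miR-99b-5p they carried C14T and C19T. Against miR-99a-5p, which was present at 102933 normalized counts, they carried T9A alone. These 2 entries held 0.553% of miR-99b-5p. The other 7 entries, with the bases of the main form, summed to 7172 in the control column and 5842 in the comparison column, a log2 ratio of −0.30, and 6 of the 7 were higher in the control column. The pair and the rest of the miRNA therefore lay on opposite sides. The means of the pair, 19.6 and 16.6, rest on the observation that no mean under 10 was listed at 1 h. By the nearest power of 10 alone they would be 1.96 and 1.66, and their columns would be smaller by the same factor.

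**Figure D5:**
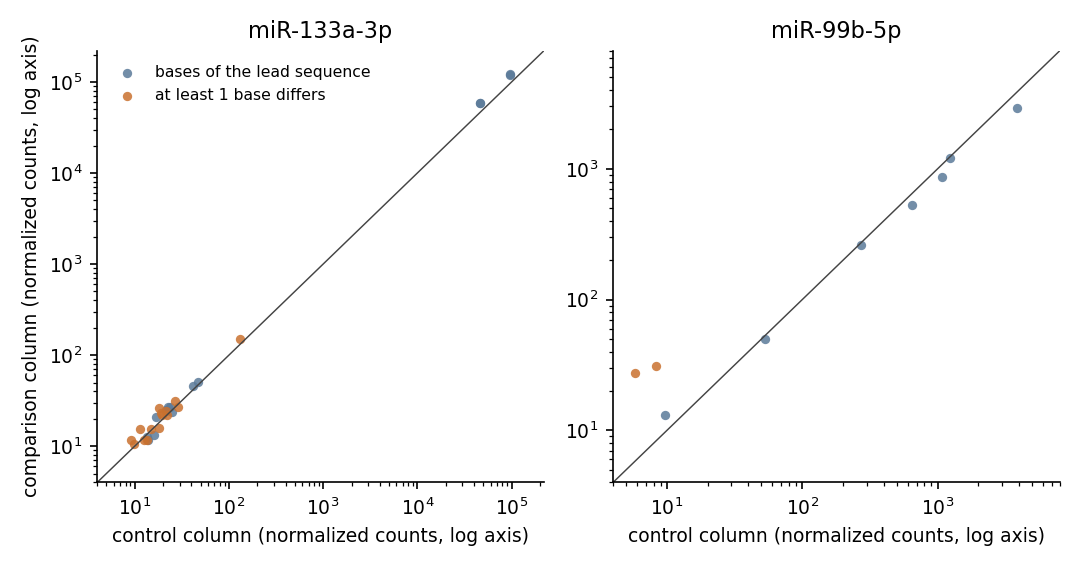
Comparison column (y axis) against control column (x axis), both in normalized counts on log axes, for the 29 entries of miR-133a-3p (left) and the 9 of miR-99b-5p (right), with the line of equal values. Blue points have the bases of the leading sequences and orange points have at least 1 other base, and the 2 orange points of miR-99b-5p lie above the line while 6 of its 7 blue points lie below it.

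In other miRNAs of that set the widest gap was also in rare entries. In miR-23b-3p the widest gap was in an entry of 14 bases with 7.73 and 15.4 normalized counts, 0.0234% of the miRNA, and the whole arm had 50633 and 48164. The same 14 bases were also listed under mir-23a, so the entry cannot be assigned to miR-23b. The log2 ratios of the 2 listings differed by 0.497, the highest gap among the pairs under 30 normalized counts. In miR-181a-5p it was in an entry of 16 bases with 22.6 and 10.9, 0.0450% of the miRNA, and the whole arm had 39063 and 35425, on the same side. In miR-27b-5p it was the last of 9 entries by abundance, with 17.3 and 8.12, and the whole arm had 540 and 471. The study prints the sequence of this rare entry under the name miR-27a-5p, whereas its precursor in the deposited entry was mir-27b. Under mir-27a itself, miR-27a-5p had 2 entries that summed to 291 and 310. miR-181b-3p, miR-148b-5p and miR-127-5p were rare throughout, at 42.9, 85.1 and 128 normalized counts. let-7d-5p had 14572 and 13975, a log2 ratio of −0.06.

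A last column of the table flagged 39 entries as outliers, 2.42% of all entries, and 1571 as OK. Such a flag in DESeq2-based output commonly marks an entry in which at least 1 library stands apart from its group, so it bears on the spread between libraries. The flagged entries came from 22 miRNA genes and held 1.26% of the sum. Among them were 4 of 13 entries of miR-208b, with 77.4% of its counts, 3 of 10 of miR-499a, all from its 3p arm, and 2 of 16 of miR-208a. Also flagged were 4 of 17 entries of miR-30e, 3 of 4 of miR-204, 3 of 5 of miR-451a, and the form of miR-126-3p that starts 1 base later, with 41696 and 33371 normalized counts. Without the flagged entries, miR-126-3p was at −0.19 on the log2 scale.

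The means over both groups were also compared across the tables of the series, each normalized on its own. miR-1 held 20.6% at 1 h, 20.9% at 22 h and 22.4% in the table of DOX 22 h and DOX 1 h, and miR-143 held 18.97%, 20.6% and 19.6%. miR-126 held 4.41%, 3.83% and 3.26%, and let-7 held 5.29%, 4.62% and 4.92%. In the 2 other tables the values could be resolved into whole reads of single libraries, and at 1 h they could not. These shares have no error and no difference between them was tested.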

How the data were processed

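Groups were taken from the sample labels. The labels and the study's methods give TruSeq small RNA libraries, an Illumina HiSeq 2500, the BaseSpace Small RNA v1.0 application, alignment to human sequences (hg19 in the submitters' processing notes) and DESeq2. DESeq2's version and the counting settings are not given in the sources used here. In the table at 1 h, the authors' mean and the deposited control and comparison values are normalized counts that had lost their decimal marks, and they were treated as a score. In the table of DOX 22 h and DOX 1 h the deposited mean is an intact signal, and its power of 10 was given to the same entry at 1 h. The 15 means that then fell under 10 were multiplied by 10, since no other mean was under 10. The powers of the column values were set so that their sum was 2 times the mean. On simulated tables of 1506 entries, 100% of the means were restored. There the means departed from those of the table of DOX 22 h and DOX 1 h with a log SD of 0.3. All were also kept at 10 or more. This tried the procedure under its own assumptions and does not show that the real means were restored. The authors' own fold changes, standard errors and p-values are in the tables and were not used directly, though the column ratios of single entries carry those fold changes. The 104 entries without a positive mean in the table of DOX 22 h and DOX 1 h were left out. That table holds DOX groups only, so this filter ran on abundance under DOX and not under DMSO.

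Entries were grouped by precursor, with starts over 15 bases apart as different arms. Where 1 arm was listed, starts under 35 were called 5p, except for 4 miR-320 precursors set to 3p by sequence. Families were taken from the number in the precursor name. Copies of a gene were pooled and entries summed by column. With 1 value per group, the tests planned for values per library could not be run, and no test was made. Named were the 20 most abundant precursor arms, the members of fixed lists, the miRNAs the study followed, and those past a 1.2-fold limit. The clusters, the entries of miR-99b-5p, mir-339 and mir-140 and the 1.2-fold limit were chosen after values were seen. Members and lists were chosen with earlier results of these data known. Alternatives changed the mean used, the filter, the arm gap, the scaling and the treatment of repeated and flagged entries. Python 3.11.15, numpy 2.4.6, pandas 2.3.3, scipy 1.17.1 and matplotlib 3.10.9 were used. No column of an unmapped sample was used.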

Additional observations from a re-analysis of the deposited data

How the results depend on the processing

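With the mean of the same entry in the table of DOX 22 h and DOX 1 h, the muscle list held 37.43% of the sum, miR-143 19.65% and let-7 4.925%. Counting each sequence once, with its listings averaged, gave 26.7%, 24.27% and 4.839%, and put miR-143 (first) before miR-1, which held 13.75%. By construction this setting lowers miRNAs with several gene copies. Means of at least 100 gave 33.64% for muscle and 19.06% for miR-143, a lead share of 55.45% and a weighted length of 19.73 bases. Leaving out flagged entries was tried after the data had been seen, and the shares then were 33.83%, 19.22% and 5.354%, and the length was 19.73 bases. With equal weights the mean length was 19.16 bases. Grouped by family and arm, lead entries held 37.44%. Summing only entries of at least 100, also chosen after seeing the data, gave 11 arms higher in the comparison column past 1.2-fold where there had been 23. In the control column it gave 5 where there had been 12, with 3 of the 12 kept and miR-29b-3p and miR-339-3p gained. The lost arms had under 2 entries left, so fewer arms were compared in this setting. Of the 12, 9 were kept without flagged entries, with miR-374a-5p, miR-204-5p and miR-337-5p lost, and 10 with both columns scaled to the same total, with miR-423-5p and miR-204-5p lost. Under that scaling miR-133a-3p was at 0.3408. None of the log2 ratios recomputed for 10 named miRNAs changed sign under the alternatives run.

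No paired analysis was possible because the table holds no value per library. For the same reason the alternatives for values per library (TMM, no filter, leaving out a replicate, the block and the most abundant entry alone) were not run. Counting noise limits entries under 100 normalized counts, and the spread between libraries was not measured from the values used.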
